A study of Mus musculus with 4 samples.

Results

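The 10 genes of the circadian clock followed here were measured in mouse liver after starvation: the activators Arntl (also called Bmal1), Clock and Npas2, the repressors Per1, Per2, Cry1, Nr1d1 and Nr1d2, and the output factors Dbp and Tef. They were chosen by name, as every probe set whose annotated symbol is 1 of these 10, which gave 17 of the 22626 probe sets tested on an Affymetrix array and 10 of the 12393 genes it names. The arrays carried liver RNA of 2 wild-type mice that were starved for 24 h and of 2 wild-type control mice, all of the C57/BL6 background and 1 month old. Titles and treatment labels give these groups, while the descriptions speak of injected and not injected mice, and what that refers to was not settled. No time of day of collection is given in the labels used here. Values are log2 RMA signals. A change is given as the difference in mean signal, starved over control, so that 1 log2 unit is a 2-fold difference.

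The clock is a loop of transcription that runs in most cells, the hepatocyte among them. A dimer of Bmal1 with Clock or Npas2 binds E-boxes and switches on the Per, Cry and Nr1d genes. Per and Cry proteins return to block the dimer, and the Rev-erb receptors, the products of Nr1d1 and Nr1d2, repress Arntl, Npas2, Clock and Cry1 through ROR elements. Dbp and Tef are PAR bZIP factors that act on D-boxes of Per genes and of liver enzymes. In mouse liver the transcripts of Arntl, Npas2, Clock and Cry1 peak late in the night or around dawn, and those of Nr1d1, Nr1d2, Dbp, Tef, Per1 and Per2 during the day or at dusk. Feeding time is known to set the phase of this loop in the liver.

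Promoter stretches of the repressors Per1 and Cry1, the output gene Tef and the activator Arntl are printed because the letters of these elements, in capitals, stand in them. The E-box was searched as CACGTG, the D-box as TTATGTAA or TTATGCAA and the ROR element as TAGGTCA, on both strands, in RefSeq windows of 300 bases (GRCm38.p6, 250 before to 50 after an annotated start). Of 32851 such windows, 7.15% held the E-box, 1.66% the D-box and 2.61% the ROR element. The genes had 14 windows, for 9 of the 10, and 4 of the 14 held the E-box (in 3 genes), 1 the D-box and 1 the ROR element. The Per1 stretch (chr11:69098699-69098948, plus strand) has the E-box from 166 bases and the D-box from 24 bases before the start. The Cry1 stretch (chr10:85185055-85185304, minus strand) has the E-box from 60 bases before the start. The Tef stretch (chr15:81802423-81802672, plus strand) has it from 127 bases before the start. The Arntl stretch (chr7:113207530-113207559, plus strand) holds the ROR element from base 31 after the start. A match is a description of letters and not a measured binding site.
Per1: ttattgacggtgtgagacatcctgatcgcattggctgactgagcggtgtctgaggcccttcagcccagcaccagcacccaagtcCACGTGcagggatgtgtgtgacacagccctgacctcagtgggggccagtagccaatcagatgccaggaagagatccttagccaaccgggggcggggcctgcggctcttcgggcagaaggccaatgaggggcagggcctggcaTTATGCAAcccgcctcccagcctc
Cry1: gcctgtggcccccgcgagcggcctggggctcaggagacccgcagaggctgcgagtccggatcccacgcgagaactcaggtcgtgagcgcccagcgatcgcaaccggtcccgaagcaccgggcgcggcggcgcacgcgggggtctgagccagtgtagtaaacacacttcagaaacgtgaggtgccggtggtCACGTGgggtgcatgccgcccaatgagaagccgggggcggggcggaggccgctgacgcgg
Tef: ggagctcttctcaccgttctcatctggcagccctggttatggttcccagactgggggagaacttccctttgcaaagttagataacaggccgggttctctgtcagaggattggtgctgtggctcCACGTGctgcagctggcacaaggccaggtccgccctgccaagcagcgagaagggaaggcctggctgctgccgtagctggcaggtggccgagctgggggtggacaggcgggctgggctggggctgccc
Arntl: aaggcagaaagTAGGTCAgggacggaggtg

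The array of control mouse 2 stands apart from the other 3 in acute phase genes, and changes that depend on it are therefore also given without it. The serum amyloid gene Saa3 read 8.74 and 8.76 in starved livers 1 and 2, against 8.77 and 12.36 in control livers 1 and 2, and Orm2 and Lcn2 read 9.10 to 9.25 and 8.84 to 9.15 in starved livers, against 9.34 and 13.79 and 9.35 and 13.49 in control livers 1 and 2. All 6 listed acute phase genes were higher on control 2 than on control 1. The mean of 5 neutrophil markers was 5.70 and 6.08 in starved livers 1 and 2, against 5.76 and 6.56 in control livers 1 and 2, highest on control 2 through S100a8 and S100a9. The mean of 6 endothelial markers was 7.96 and 7.68 in starved livers, against 7.96 and 7.31 in control livers, lowest on control 2, while 1 of the 6, Lyve1, read 8.89 and 8.02 in starved livers, against 6.64 in each control liver. The part of these genes and cells in the clock values was not tested. Hepatocyte markers averaged 14.33 to 14.58 in starved livers and 14.38 to 14.45 in control livers over 7 measured of 8 listed genes, near the top of every array. In bulk liver RNA, fewer cells of a type and less RNA per cell cannot be told apart.

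No clock probe set passed the test between starved and control livers. With limma and a Benjamini-Hochberg adjusted p under 0.05 over all probe sets, 0 of 17 clock probe sets were called, against 0.0575% of all probe sets (13 of 22626). At an unadjusted p under 0.05 the limma count was 1 of 17, that of Cry1, against 11.5% of all probe sets. The starved arrays lay on 1 side of both control arrays for 3 of 17 clock probe sets, all above, against 21.3% of all probe sets above and 41.9% in either direction. Where a gene had several probe sets, the one with the highest mean over the 4 arrays represents it here, and the median change over the 10 genes was 0.15, against 0.0031 over all genes. The change was above 0 for 10 of the 10 genes, against 6307 of 12393 genes, but for Npas2 and Nr1d2 it was -0.027 and -0.064 with the mean over their probe sets. That count rested on control 2: without it 5 of the 10 changes were above 0 and their median was -0.01, while without control 1 the count was 10 and the median 0.45. Without starved 1 the count was 9 and the median 0.38, and without starved 2 they were 6 and 0.23. The distance between the 2 control mice exceeded the change in 9 of the 10 genes, against 54.6% of all genes.

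**Figure D1:**
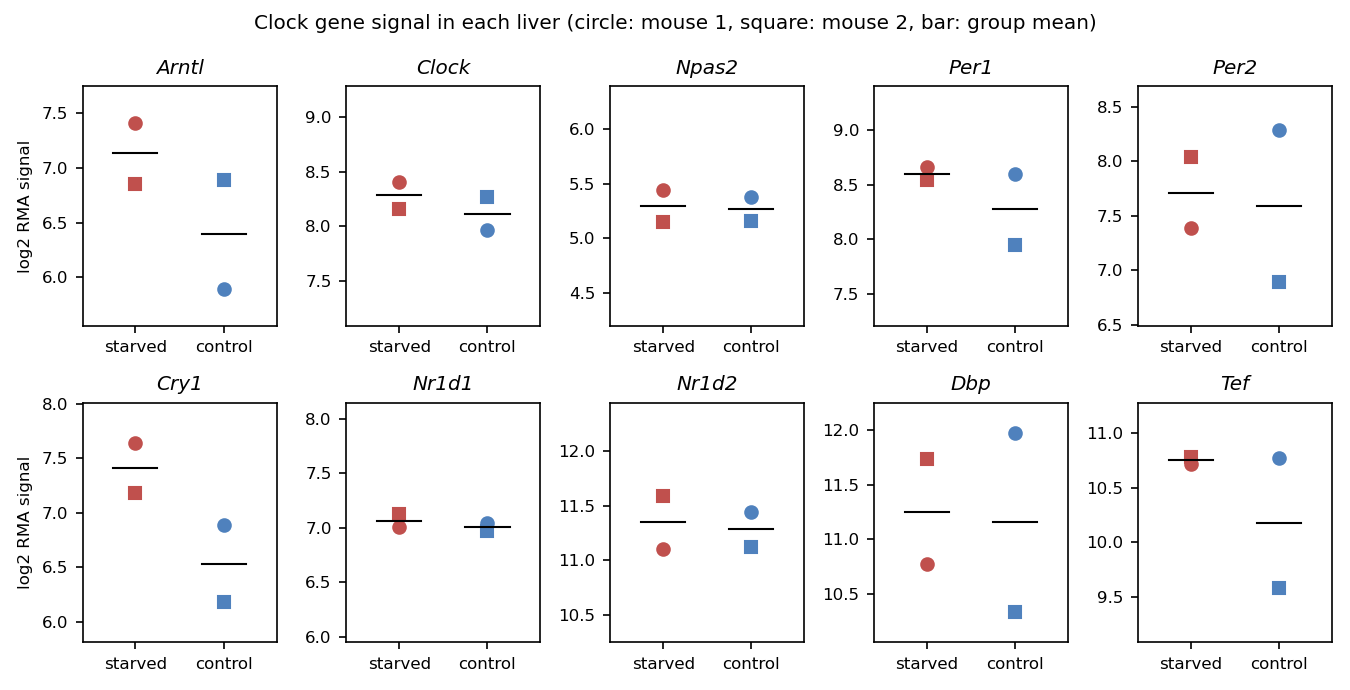
Log2 RMA signal (y axis, same span of log2 units in each panel) of the representative probe set of each clock gene in the starved and control livers; circles are mouse 1, squares mouse 2 and bars group means. Starved and control points overlap in every gene except Cry1, and the control points of Arntl, Per2, Dbp and Tef lie over 2-fold apart.

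Of the 3 activators, Arntl had the largest change. Arntl, read by the single probe set 1425099_a_at, had signals of 7.42 and 6.86 in starved livers 1 and 2, against 5.89 and 6.89 in control livers 1 and 2. Starved 1 was the highest array, control 1 the lowest, and starved 2 lay beside control 2, so the groups overlapped. The change was 0.75 ± 0.35 (SE, n = 2 per group), with a 95% interval of -0.13 to 1.62 (limma, adjusted p = 0.493). Without control 2 the Arntl change was 1.25, and without control 1 it was 0.24.

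Clock, which codes for the partner of Bmal1, had a small change. Its probe set 1418659_at read 8.41 and 8.16 in starved livers 1 and 2, against 7.97 and 8.27 in control livers 1 and 2. The 4 arrays stood in the same order as for Arntl, over a range of 0.44. The change was 0.17 ± 0.16 (SE), with an interval of -0.22 to 0.56 (limma, adjusted p = 0.769). With 1 array left out, the Clock change ran from 0.018 (no control 1) to 0.32 (no control 2), and was 0.045 when starved 1 was dropped. The other Clock probe set, 1418660_at, read 8.11 and 8.04 in starved livers, against 7.68 and 8.03 in control livers 1 and 2. Both starved arrays were above both control arrays there, and the change was 0.22 ± 0.15. Npas2, the Clock paralogue that also pairs with Bmal1, gave weak signals. Its probe set 1421036_at read 5.44 and 5.15 in starved livers, against 5.38 and 5.16 in control livers, a change of 0.02 ± 0.15 with an interval of -0.35 to 0.40. The second Npas2 probe set, 1421037_at, lay below the lower quartile of all 4 arrays and had a change of -0.08 ± 0.17.

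Cry1, the cryptochrome that represses the Bmal1 dimer late in the cycle, was the clock gene with the smallest p. Probe set 1433733_a_at read 7.65 and 7.18 in starved livers 1 and 2, against 6.89 and 6.18 in control livers 1 and 2. Both starved arrays were above both control arrays. The change was 0.88 ± 0.27 (SE), 1.84-fold, with an interval of 0.21 to 1.55 and a limma p of 0.0185 before and 0.325 after adjustment. It was 0.53 without control 2 and 1.23 without control 1.

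The Per genes code for the repressors that enter the nucleus with Cry proteins. Per1 (1449851_at) read 8.66 and 8.54 in starved livers, against 8.60 and 7.95 in control livers 1 and 2, so that control 2 alone was low. Its change was 0.33 ± 0.22 (SE; limma, adjusted p = 0.649) and 0.0026 without control 2. Per2 (1417602_at) read 7.39 and 8.04 in starved livers 1 and 2, against 8.29 and 6.90 in control livers 1 and 2. Both starved arrays lay between the control arrays, which were 2.62-fold apart. The Per2 change was 0.12 ± 0.46, with an interval of -1.02 to 1.26, and was -0.57 without control 2 and 0.82 without control 1. A second Per2 probe set, 1417603_at, put the 4 arrays in the same order over a range of 0.59.

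The Rev-erb genes were the flattest of the repressors. Nr1d1 (1426464_at), which codes for Rev-erb alpha, read 7.00 and 7.13 in starved livers, against 7.05 and 6.97 in control livers, over a range of 0.16. Its change was 0.06 ± 0.12 (SE), with an interval of -0.23 to 0.35. Nr1d2, which codes for Rev-erb beta, read 11.11 and 11.59 in starved livers 1 and 2 on probe set 1416958_at, against 11.44 and 11.12 in control livers 1 and 2. Starved 2 was the highest array and starved 1 the lowest, and the change was 0.06 ± 0.20, or -0.10 without control 2. The other Nr1d2 probe set, 1416959_at, lay below the lower quartile of all 4 arrays, with a change of -0.19 ± 0.15.

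The PAR bZIP factors Dbp and Tef differed by more than 2-fold between the control mice. Dbp, a direct E-box target with a steep daily rhythm, read 10.78 and 11.73 in starved livers 1 and 2 on probe set 1438211_s_at, against 11.97 and 10.34 in control livers 1 and 2. The starved arrays lay inside the span of the control arrays. The change was 0.10 ± 0.57 (SE), with an interval of -1.30 to 1.50, and was -0.72 without control 2 and 0.92 without control 1. Probe set 1418174_at of Dbp ordered the arrays alike, with 8.83 and 9.61 in starved livers and 9.79 and 8.29 in control livers 1 and 2.

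Tef was lowest on control 2 by each of its 3 probe sets. Probe set 1424175_at read 10.72 and 10.78 in starved livers, against 10.77 and 9.58 in control livers 1 and 2, and 1438033_at read 8.39 and 8.41, against 8.21 and 6.68. Control 2 was 2.29-fold below control 1 on the first and 2.89-fold on the second. The change was 0.57 ± 0.37 (SE; limma, adjusted p = 0.623) on the first, and -0.02 without control 2. It was 0.95 ± 0.46 on the second (limma, adjusted p = 0.503), where both starved arrays lay above both control arrays. Of the clock probe sets, Tef 1438033_at alone passed the limma test in any of the settings tried, with a change of 1.72 without control 1 (adjusted p = 0.0322), against 0.19 without control 2 (adjusted p = 0.756). The remaining Tef probe set, 1450184_s_at, had a change of 0.08 ± 0.20.

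**Figure D2:**
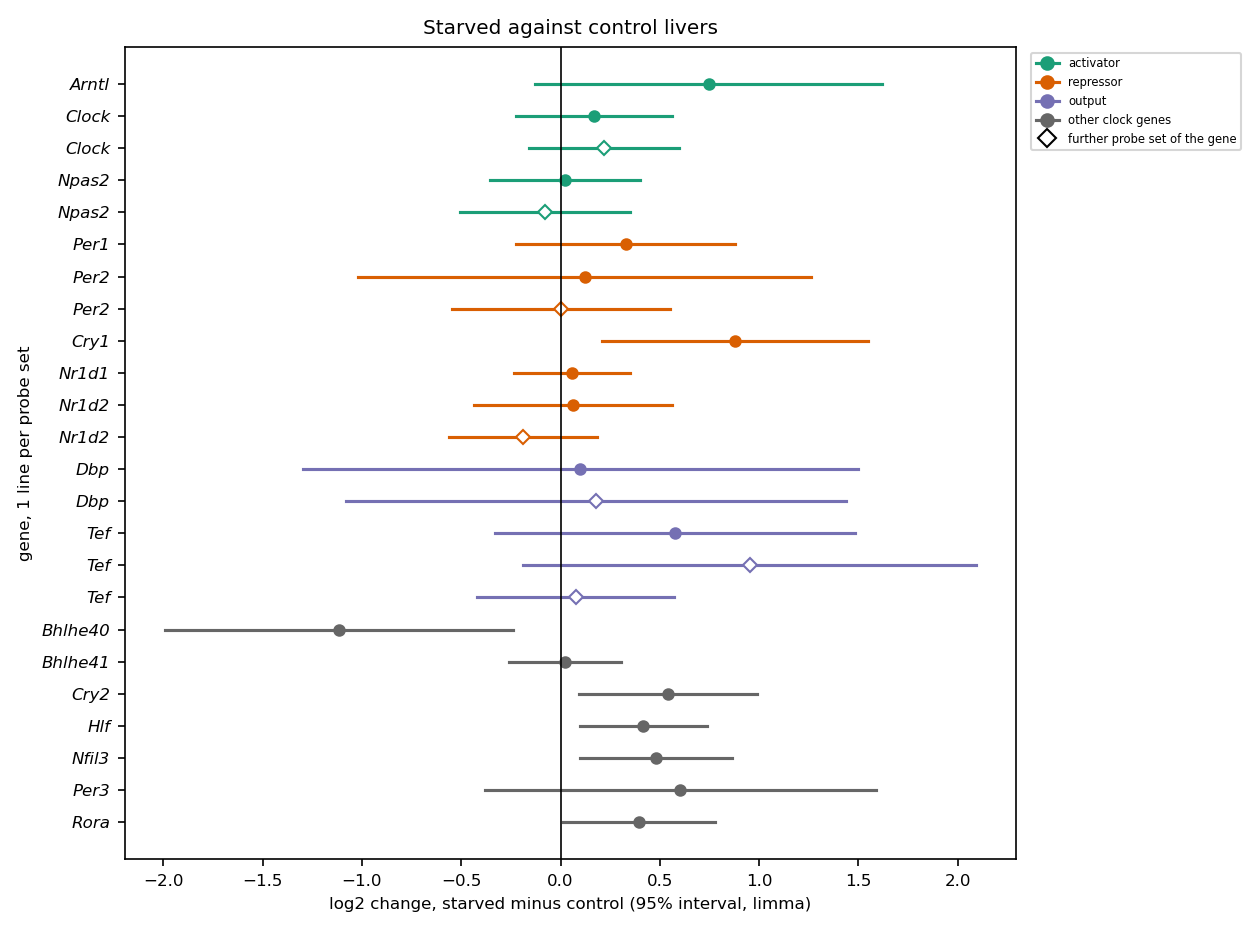
Log2 change, starved minus control (x axis, point with 95% limma interval), for each of the 17 clock probe sets and for 7 other clock genes (y axis); filled circles are representative probe sets. Of the 10 clock genes, the interval of Cry1 alone lies above 0, and those of Dbp and Per2 run over 1 log2 unit to either side.

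The mean changes of the activator and the repressor arm had the same sign and nearly the same size, and no test was made of them. Expressed as the mean deviation from each gene's 4-array mean, the activator arm (Arntl, Clock and Npas2) stood at 0.34 and -0.03 in starved livers 1 and 2, against -0.34 and 0.02 in control livers 1 and 2. The repressor arm (Per1, Per2, Cry1, Nr1d1 and Nr1d2) stood at 0.08 and 0.21 in starved livers, against 0.17 and -0.46 in control livers. The mean change was 0.31 for the activators and 0.29 for the repressors, a difference of 0.02. Arntl (0.75) and Cry1 (0.88) had by far the largest changes of their arms. The median change was 0.17 for the activators and 0.12 for the repressors. By array, activators minus repressors came to 0.26 and -0.24 in starved livers 1 and 2, against -0.51 and 0.48 in control livers 1 and 2. The starved arrays thus lay between the control arrays, and the sign of the difference depended on which mouse was compared: it was 0.52 without control 2 and -0.47 without control 1.

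Grouped by the known time of their peak, the genes put control 1 lowest and starved 2 next, as activators minus repressors did. Only Dbp and Tef are new to this grouping, so the 2 orders are not independent. The late-phase genes (Arntl, Clock, Npas2 and Cry1) minus the day-phase genes (Per1, Per2, Nr1d1, Nr1d2, Dbp and Tef) came to 0.50 and -0.25 in starved livers 1 and 2, against -0.61 and 0.36 in control livers 1 and 2. The starved minus control difference was 0.25, and its 4 mouse-by-mouse values ran from -0.62 (starved 2 minus control 2) to 1.11 (starved 1 minus control 1). It was 0.73 without control 2 and -0.24 without control 1. Whether the mice differed in time of collection was not tested.

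**Figure D3:**
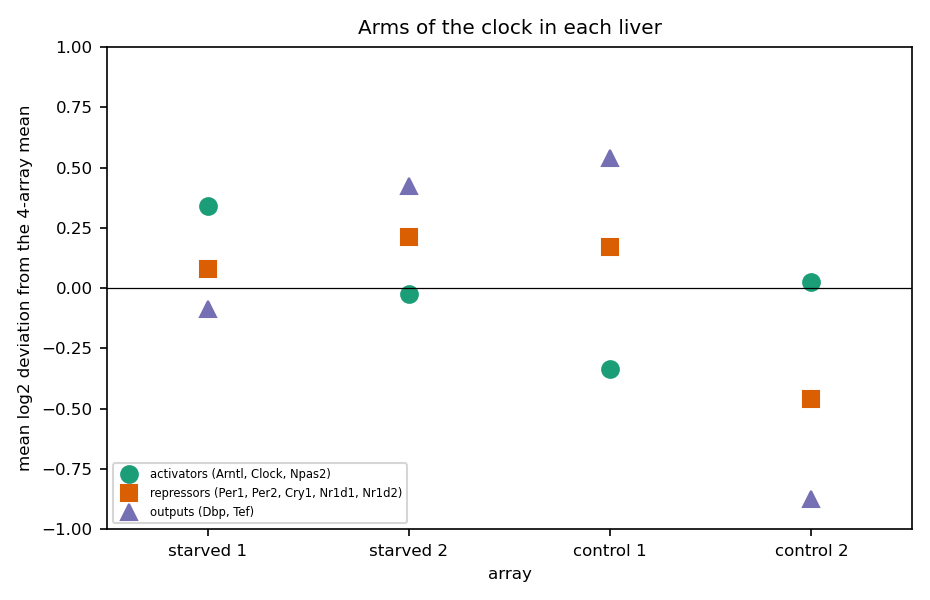
Mean log2 deviation from the 4-array mean (y axis) of the activator, repressor and output genes on each array (x axis). Activators lie above repressors on starved 1 and control 2, below them on starved 2 and control 1, and outputs range from -0.88 on control 2 to 0.54 on control 1.

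The clearest pattern in the clock probe sets was between mice of the same group. Control 2 differed from control 1 by more than 2-fold in 6 of 17 clock probe sets, against 1.02% of all probe sets. On 5 of these 6 control 2 was lower, 2 of Dbp, 1 of Per2 and 2 of Tef, against 0.566% of all probe sets lower by that much. The other was Arntl, which was 2.01-fold higher on control 2 than on control 1. The median distance between the control arrays was 0.59 over the clock probe sets and 0.15 over all probe sets. Dbp had the widest gap, with control 2 at 10.34 and control 1 at 11.97, a 3.12-fold difference.

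The starved mice differed by less, and 0 of 17 clock probe sets were past 2-fold between them, against 0.654% of all probe sets. Their median distance was 0.29 over the clock probe sets and 0.14 over all probe sets. Dbp was 1.94-fold higher on starved 2 than on starved 1, Per2 was 1.57-fold higher and Nr1d2 was 1.39-fold higher, while Arntl was 1.47-fold lower and Cry1 was 1.38-fold lower. Starved 2 over starved 1 and control 2 over control 1, which share no array, had opposite signs in 14 of 17 clock probe sets. The share was 47.9% over all probe sets. By representative probe set it was 7 of 10 clock genes, against 48.2% of all genes. The mouse numbers are only labels, and exchanging them within a group would turn opposite signs into like signs. Probe sets of the same gene are not independent, and the Tef probe sets had starved gaps of only 0.02 to 0.07. Cry1, Per1 and Npas2 were the representative probe sets with the same sign in both, lower on the second mouse of each group.

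**Figure D4:**
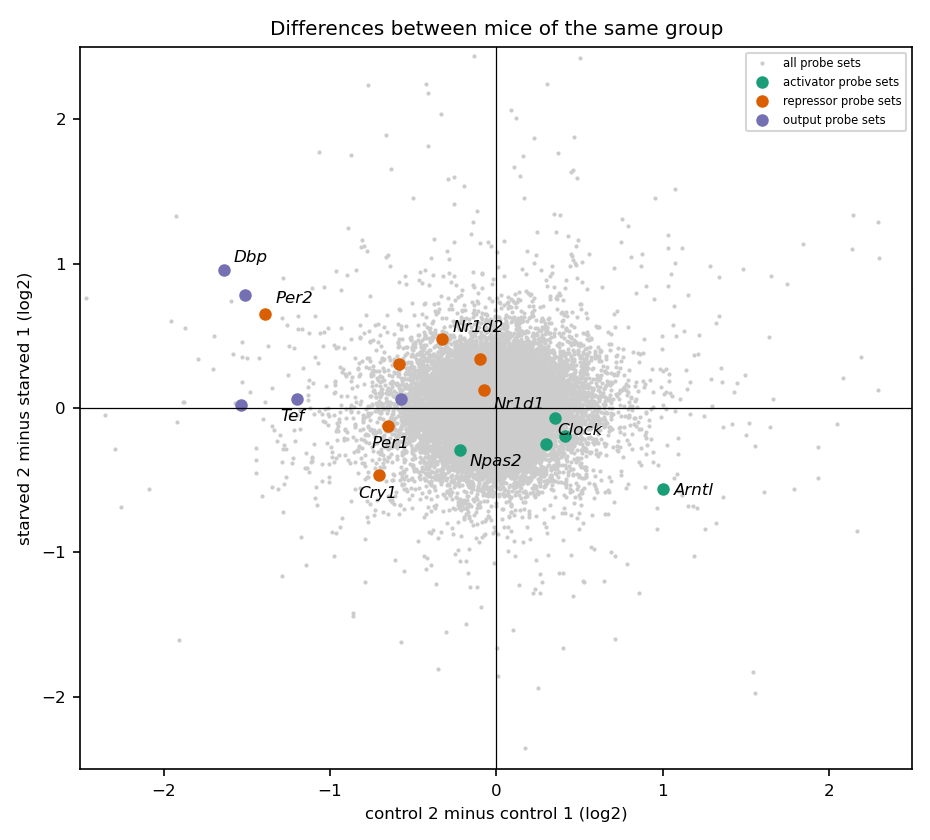
Difference between the control mice (x axis, control 2 minus control 1, log2) and between the starved mice (y axis, starved 2 minus starved 1, log2) for the clock probe sets over all probe sets in grey; 33 probe sets lie outside the axes. Dbp and Per2 lie at the upper left and Arntl at the lower right, away from the grey mass around 0.

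**Figure D5:**
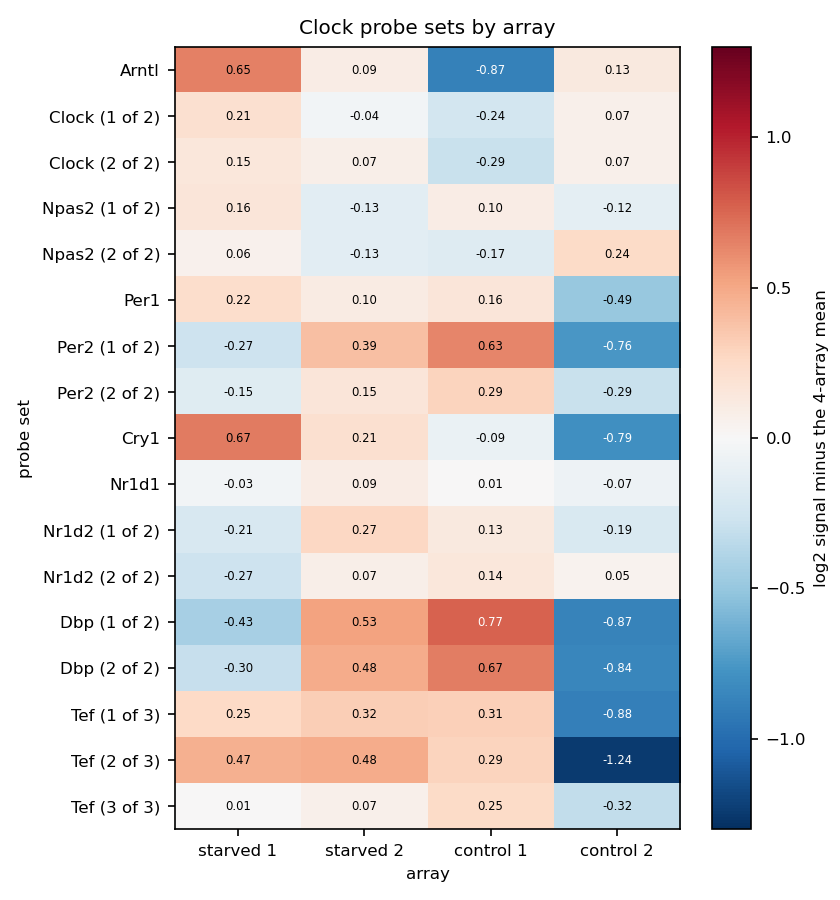
Log2 signal minus the 4-array mean (colour and printed value) of each of the 17 clock probe sets (rows) on each array (columns). The Dbp and Per2 rows are high on control 1 and starved 2 and low on control 2 and starved 1, the Arntl row is lowest on control 1, and the Tef rows are lowest on control 2.

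Of other clock genes, 7 of 9 listed were measured, and 0 passed the limma test, against 0.0646% of all genes. An unadjusted limma p under 0.05 was found for 5, against 11.4% of all genes, 4 of them higher (5.31% of all genes) and 1 lower (6.05%). Groups did not overlap in 5 of the 7, against 42.2% of all genes. Their median change was 0.42. The count of 5 depended on which arrays were kept, and it fell furthest without control 2. The median change was 0.22 without control 2 and 0.57 without control 1. It was 0.43 without starved 1 and 0.33 without starved 2. Bhlhe40, which codes for the repressor Dec1 that competes for E-boxes, read 8.90 and 10.05 in starved livers 1 and 2, against 10.61 and 10.56 in control livers, a change of -1.12 ± 0.35 (SE; limma, adjusted p = 0.337). Without starved 1 the Bhlhe40 change was -0.54, and without starved 2 it was -1.69. The other cryptochrome gene, Cry2, read 7.91 in each starved liver, against 7.61 and 7.12 in control livers 1 and 2, a change of 0.54 ± 0.18, or 0.30 without control 2. Nfil3, a factor that opposes Dbp and Tef at D-boxes, had a change of 0.48 ± 0.16, Hlf, a PAR bZIP factor like Dbp and Tef, a change of 0.42 ± 0.13, and Rora, which activates through ROR elements, a change of 0.39 ± 0.16, or 0.22 without control 2. In these 4 genes both starved arrays were above both control arrays. Per3 was lowest on control 2, as Per2 and Tef were, with 6.97 and 7.52 in starved livers, against 7.24 and 6.04 in control livers 1 and 2. Its change was 0.60 ± 0.40, or 0.0065 without control 2. Bhlhe41, which codes for the Dec2 repressor, had a change of 0.02 ± 0.11.

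Proteins that modify the clock were read for 11 of 15 listed genes, of which 0 passed the limma test, against 0.0646% of all genes, and 0 had an unadjusted p under 0.05, against 11.4%. The median change was 0.16, from 0.09 without control 1 to 0.28 without starved 2. The acetyltransferase Crebbp had a change of 0.43 ± 0.20 (SE), the deacetylase Sirt1 of 0.40 ± 0.20, the casein kinase Csnk1d, which phosphorylates Per proteins, of 0.26 ± 0.14, and the deubiquitinase Usp2, itself a rhythmic transcript, of 0.82 ± 0.46. Usp2 had a low control 2, with 10.12 and 9.66 in starved livers, against 9.79 and 8.35 in control livers 1 and 2. Its change was 0.099 without control 2 and 1.54 without control 1. With 1 array left out, the change ran from 0.20 to 0.66 for Crebbp, from 0.16 to 0.64 for Sirt1 and from 0.14 to 0.38 for Csnk1d.

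Rhythmic liver outputs were read for 12 of 15 listed genes, with 0 past the limma test, against 0.0646% of all genes, and 3 at an unadjusted p under 0.05, against 11.4%. Their median change was 0.42, and it was 0.058 without control 2 and 0.67 without control 1. Noct, the nocturnin phosphatase whose transcript peaks at the onset of the night, read 9.41 and 8.73 in starved livers, against 10.57 and 10.54 in control livers, a change of -1.49 ± 0.23 (SE; limma, adjusted p = 0.106). Both starved arrays were below both control arrays. Cyp7a1, which opens bile acid synthesis and is a target of Dbp, read 12.43 and 11.45 in starved livers, against 9.94 and 10.53 in control livers (change 1.71 ± 0.35, limma, adjusted p = 0.183). The receptor gene Nr1i3, which the PAR bZIP factors drive, had a change of 1.15 ± 0.26, and passed the limma test without control 1 (1.56, adjusted p = 0.0434) but not without control 2 (0.74, adjusted p = 0.265). Nampt, an E-box target that makes an NAD precursor, had a change of 0.54 ± 0.22, or 0.26 without control 2.

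Of these outputs, 3, chosen after their values were seen, were over 2-fold apart between the control mice, against 1.23% of all genes. Rgs16, a regulator of G protein signalling, read 10.38 and 9.42 in starved livers, against 10.34 and 7.75 in control livers 1 and 2. Wee1, a cell cycle kinase under E-boxes, read 7.84 and 8.47 in starved livers, against 8.13 and 7.04 in control livers 1 and 2, and its change was 0.57 ± 0.39, or 0.027 without control 2. Elovl3, a fatty acid elongase, was higher on control 2 than on control 1, with 11.74 and 11.55 in starved livers, against 11.55 and 13.05 in control livers 1 and 2.

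Signals that feed into the clock from hormones, cyclic AMP and temperature were read for 13 of 14 listed genes, with 0 past the limma test, against 0.0646% of all genes. At an unadjusted limma p under 0.05 were 5, against 11.4% of all genes, 3 higher (5.31%) and 2 lower (6.05%). The median change was -0.25, from -0.22 without control 1 to -0.087 without starved 2. Fkbp5, a glucocorticoid-induced chaperone, read 11.90 and 11.17 in starved livers, against 10.07 and 9.65 in control livers. Its change was 1.67 ± 0.27 (SE; limma, adjusted p = 0.112). Other glucocorticoid-induced genes of the list, chosen after their values were seen, mostly had changes below 0, but their 95% limma intervals included 0. Dusp1 and Tsc22d3 had changes of -0.53 ± 0.28 and -0.44 ± 0.28. Sgk1 and Tat had changes of -0.31 ± 0.23 and -0.09 ± 0.38, while that of Klf9 was 0.29 ± 0.12. Starved 2 was the lowest array for Dusp1, Tsc22d3, Sgk1 and Tat. Dusp1 read 9.35 and 8.47 in starved livers 1 and 2, against 9.47 and 9.40 in control livers 1 and 2. In the same order, Tsc22d3 read 12.11 and 11.25, against 12.13 and 12.11, and Tat 13.65 and 12.41, against 13.20 and 13.04. Cirbp, an RNA-binding protein induced by cooling, read 8.10 and 7.45 in starved livers, against 6.54 and 6.70 in control livers, a change of 1.15 ± 0.23 (limma, adjusted p = 0.167). Crem and Sik1, which cyclic AMP induces through CREB, had changes of -0.80 ± 0.16 and -0.52 ± 0.16, and that of Sik1 was -0.33 without starved 1. Ppargc1a of the same list, chosen after its values were seen, went the other way (limma, adjusted p = 0.425). It read 9.85 and 8.57 in starved livers 1 and 2, against 8.09 and 8.31 in control livers 1 and 2.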

How the data were processed

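Liver RNA of 2 starved and 2 control mice was hybridised to Affymetrix arrays. The deposited values are log2 signals per probe set. Per the submitters' processing notes, affy and RMA were used, with versions and settings not given in the sources used here. RMA forces the arrays to 1 distribution, which hides any change that all transcripts share. Levels of different probe sets were not set against each other. Of 22690 probe sets, 64 Affymetrix controls were left out. Of the rest, 20380 carry 1 gene symbol in the platform annotation, 691 several and 1555 none; 20351 were matched by Entrez identifier to a RefSeq gene table of GRCm38.p6.

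All 22626 probe sets were fitted with lmFit and eBayes in limma 3.58.1 (R 4.3.3), two-sided, without covariates, with Benjamini-Hochberg adjustment over all of them and a threshold of 0.05. Total degrees of freedom were 5.83, of which 3.83 came from the prior. The labels call the mice biological replicates, and precision is limited by there being 2 per group. Every probe set of the 10 genes is named, with all measured genes of the list of other clock genes and the 4 with the smallest p of each further list. Others are marked as chosen after their values were seen. Members and lists were chosen with earlier results of these data known. Alternatives were median or quantile scaling, a filter on the lowest 40%, 1 probe set or the mean per gene, no _x_at or _s_at probe sets, trend and robust settings, a replicate block, and each array left out.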

Additional observations from a re-analysis of the deposited data

How the results depend on the processing

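The count of 0 clock probe sets past the limma test held in every alternative but 1: without control 1 it was 1 (Tef 1438033_at), so the range over the fits that leave out 1 array was 0 to 1, as it was for the further clock lists (Nr1i3). The count over all probe sets, 13, was 8 with 1 probe set per gene, 23 without _x_at and _s_at probe sets, 59 with trend and robust settings, and 2 to 57 with 1 array left out. With the replicate number as a block it was 0, and no clock probe set was called; the numbers do not pair the mice (correlation of same-numbered deviations 0.0383). With 1 array left out, a group's remaining array is taken to vary as much as the arrays opposite. Signs of small changes were not stable: averaging a gene's probe sets gave -0.027 for Npas2 and -0.064 for Nr1d2. With 1 array left out, the log2 change ran from -0.12 to 0.17 for Npas2, -0.0040 to 0.12 for Nr1d1, -0.18 to 0.30 for Nr1d2, -0.57 to 0.82 for Per2, -0.72 to 0.92 for Dbp, -0.023 to 1.17 for Tef, -0.022 to 0.062 for Bhlhe41, -1.41 to 0.093 for Elovl3 and -0.44 to 2.15 for Rgs16. It kept its sign for Arntl (0.24 to 1.25), Clock (0.018 to 0.32), Per1 (0.0026 to 0.65) and Cry1 (0.53 to 1.23). The difference between activators and repressors ran from -0.47 to 0.52, and that between late-phase and day-phase genes from -0.24 to 0.73. Low signals limit Npas2 and the second Nr1d2 probe set.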
